A study of Mus musculus with 9 samples.

Results

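The cells described here are those of the caput of the mouse epididymis whose messenger RNA was richest in Lcn5, Ntsr2, Defb30, Spag11a and Rnase13, relative to the other epithelial genes that divide the caput. Transcriptomes of single cells were counted in 9 libraries, made from the caput (the head of the organ), the corpus and the cauda of untreated C57BL/6 mice (C57BL/6J in the study's methods). For each segment there was 1 library from mice 42 days old (P42) and 2 libraries from mice 56 days old (P56), called replicate 1 and replicate 2, and each library pooled the tissue of 5 mice. At P42 there was no replicate, so the spread between libraries could be measured at P56 alone. A unique molecular identifier (UMI) marked each captured transcript, and levels are given as UMIs per 1000000 UMIs of the summed cells (CPM). In sums over cells, fewer cells of a type and less RNA per cell cannot be told apart.

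The members were chosen by a rule that used these same counts. Caput cells with 300 to 4000 detected genes, at most 20000 UMIs and under 50% of UMIs from the mitochondrial genome were kept, and cells with UMIs of more than 3 of 15 genes that mark basal, clear, endothelial, stromal, immune, cycling, ciliated cells and sperm were set aside. Within each library, the cells were ranked by their share of UMIs on the 5 genes named above and on 2 other lists of 5 genes each, led by Cst12 and Lcn8 and by Lypd8 and Defb18. A cell was a member when the Lcn5 list had its highest rank and that rank was at or above the 70th percentile. This found 2591 cells, of 10521 caput cells inside the gate, 13987 kept caput cells and 42087 kept cells in all. The P42 library held 636 members, P56 replicate 1 held 1097 and P56 replicate 2 held 858. The same rule gave 2859 cells of the Cst12/Lcn8 type and 2381 cells of the Lypd8/Defb18 type, which serve as the comparison. The members of the P42, P56 replicate 1 and P56 replicate 2 libraries had a median of 4730, 5005 and 5780 UMIs and summed to 3845125, 6446525 and 5534224 UMIs. The libraries that the comparisons of segments rest on held 4209 to 4910 kept cells and 19248247 to 40879086 UMIs each. Any 2 of the caput libraries shared 1 cell barcode among their members.

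Principal cells are the tall secretory cells that line the epididymal duct. They take up fluid and release proteins into the lumen, where sperm meet a different mixture in each stretch of the duct, and much of this output depends on androgens. Lcn5 encodes a lipocalin that binds retinoic acid, Defb30 a beta-defensin, Spag11a a defensin-like sperm-associated peptide, Rnase13 a member of the ribonuclease A family and Ntsr2 a receptor of the peptide neurotensin.

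The markers of principal cells could not decide the label. All 12 markers of principal cells that had been listed (among them Gpx5, Lcn9, Cst8 and Adam7) had UMIs in the members of each library, with a summed level of 51991, 89276 and 70279 CPM in the P42, P56 replicate 1 and P56 replicate 2 libraries, an order of libraries kept throughout. This was below the 87434, 130388 and 133813 CPM of the Cst12/Lcn8 type and the 96652, 150318 and 149870 CPM of the Lypd8/Defb18 type, and close to the 50025, 92895 and 82808 CPM of caput cells with UMIs of both C1qa and C1qc, genes of macrophages. The share of a member's UMIs on the 5 genes had a median of 0.403, 2.07 and 3.44%. At P42 it ran from 0.187% to 5.6%, in P56 replicate 1 from 0.349% to 8.72% and in P56 replicate 2 from 0.388% to 7.67%. A low and a high peak stood at P42 and in P56 replicate 1, and the low peak began at the limit of the rule. In P56 replicate 2 the shares had mainly a high peak. Its fullest bin held 176 cells, and the fullest bin under 1% held 35. The cells with C1qa and C1qc carried a median share of 0.126, 0.213 and 0.163%, and cells with UMIs of both endothelial genes Pecam1 and Cdh5 carried 0.0866, 0.112 and 0.171%, although both should lack these transcripts. The rule ranks cells within a library, and its limit fell close above that level. The cells just inside and just outside it had shares of 0.186916% and 0.186741% at P42, 0.349% and 0.348% in P56 replicate 1, and 0.388% and 0.385% in P56 replicate 2.

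A share of 1% lay between the low and the high peak of P42 and P56 replicate 1. This limit was set after the shares had been seen, so values on either side of it are given without a test. At least 1% was reached by 206 of 636 members at P42, 739 of 1097 in P56 replicate 1 and 748 of 858 in P56 replicate 2, or 32.4, 67.4 and 87.2%. Their median depth was 7668.5, 5778 and 5780 UMIs, against 4114, 4177 and 5762.5 UMIs in the members under 1%, so the 2 sets differed most in depth at P42. The other 430, 358 and 110 members carried more transcripts of several other cell types, but not of all in each library. The ciliated sum in P56 replicate 2 was 26.1 CPM against 36.5 CPM in the members of at least 1%. The cell cycle sum at P42 was 138 against 237 CPM. Summed over 7 fibroblast markers, the members under 1% had 2806, 624 and 516 CPM, against 557, 232 and 304 CPM in the members of at least 1%. For 5 erythrocyte markers the values were 38826, 7953 and 12594 CPM and 5638, 2137 and 4373 CPM, for 9 basal cell markers 2592, 1398 and 1749 CPM and 814, 818 and 1076 CPM, for 10 markers of clear and narrow cells 1708, 1741 and 2124 CPM and 558, 661 and 1129 CPM, and for 9 markers of macrophages and monocytes 975, 664 and 689.6 CPM and 238, 244 and 537 CPM. In each of these sums, at most 2 markers of a list were without a UMI. The 5 genes of the Cst12/Lcn8 list were also higher in the members under 1%, at 15297, 35379 and 33436 CPM against 6278, 12276 and 9009 CPM. The limit of 1% uses the genes of the rule itself. It was also reached by 17, 31 and 77 of the 341, 169 and 405 cells with C1qa and C1qc. These were 4.99, 18.3 and 19.0% of such cells, beside 6.77, 16.7 and 21.7% of all kept caput cells. The members of at least 1% are shown beside all members wherever a result could turn on the others. Conversely, 79, 70 and 299 caput cells with at least 1% were set aside by the gate, and 0, 4 and 20 cells ranked higher on another list.

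**Figure D1:**
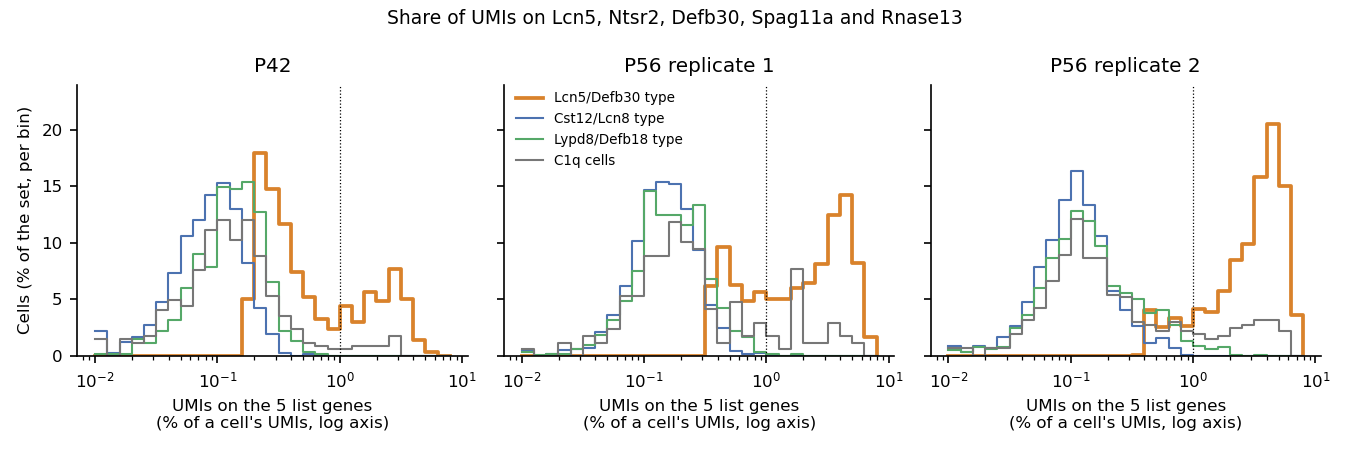
The percentage of cells in each bin (vertical axis) is plotted against the percentage of a cell's UMIs on the 5 genes (log axis) for the members, the 2 other types and the cells with C1qa and C1qc in each caput library, with cells under 0.01% in the first bin and the dotted line at 1%. Members form a low and a high peak at P42 and in P56 replicate 1, and mainly a high peak in P56 replicate 2. At or above the line lie 206 of 636, 739 of 1097 and 748 of 858.

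Promoter windows are shown for the genes of the rule, for Rnase9, whose level went most closely with Lcn5 across cells, and for Defb23, against which Rnase13 ran across cells. RefSeq promoter windows (GRCm38.p6) were found for 6 of 7 genes looked up, and none was at hand for Spag11a, whose gene lies at chr8:19157213-19159920. The first 250 bases of each window, which end at the start site that the entry uses, are printed 5′ to 3′ on the strand of the gene. That start need not be the outermost of the gene: the window of Rnase13 lies wholly inside the annotated gene (chr14:51921365-51923277), and those of Lcn5, Ntsr2 and Rnase9 overlap their genes by 20, 27 and 36 bases. Capitals mark AGAACA, a half-site of steroid hormone receptors, and TATAAA, the TATA box, on either strand (TGTTCT and TTTATA). The 2 motifs do not overlap in letters. The windows are those of Lcn5 (chr2:25657702-25657951, plus strand), Ntsr2 (chr12:16653220-16653469, plus strand), Defb30 (chr14:63037847-63038096, minus strand), Rnase13 (chr14:51922774-51923023, minus strand), Rnase9 (chr14:51041868-51042117, minus strand) and Defb23 (chr2:152464621-152464870, minus strand).
Lcn5: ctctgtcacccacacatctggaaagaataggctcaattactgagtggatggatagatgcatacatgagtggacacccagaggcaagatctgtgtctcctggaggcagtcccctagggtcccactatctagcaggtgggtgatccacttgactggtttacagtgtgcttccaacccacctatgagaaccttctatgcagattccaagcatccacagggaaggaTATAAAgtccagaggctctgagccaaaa
Ntsr2: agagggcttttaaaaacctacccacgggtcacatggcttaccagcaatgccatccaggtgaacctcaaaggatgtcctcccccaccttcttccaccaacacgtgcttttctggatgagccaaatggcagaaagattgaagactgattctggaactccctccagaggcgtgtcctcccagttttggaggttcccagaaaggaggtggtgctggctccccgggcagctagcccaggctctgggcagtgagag
Defb30: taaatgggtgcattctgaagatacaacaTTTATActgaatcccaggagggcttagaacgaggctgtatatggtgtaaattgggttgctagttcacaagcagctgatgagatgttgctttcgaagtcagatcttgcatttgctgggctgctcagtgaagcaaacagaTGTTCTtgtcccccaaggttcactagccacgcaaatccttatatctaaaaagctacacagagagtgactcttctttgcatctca
Rnase13: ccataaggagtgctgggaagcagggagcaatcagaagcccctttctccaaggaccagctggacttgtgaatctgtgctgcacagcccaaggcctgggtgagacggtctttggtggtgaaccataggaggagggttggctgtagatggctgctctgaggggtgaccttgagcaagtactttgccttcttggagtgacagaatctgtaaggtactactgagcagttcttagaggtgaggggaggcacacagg
Rnase9: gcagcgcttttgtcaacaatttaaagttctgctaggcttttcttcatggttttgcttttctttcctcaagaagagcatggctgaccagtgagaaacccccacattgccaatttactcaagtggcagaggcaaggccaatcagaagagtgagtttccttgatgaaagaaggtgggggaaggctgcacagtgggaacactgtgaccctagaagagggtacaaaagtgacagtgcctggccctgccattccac
Defb23: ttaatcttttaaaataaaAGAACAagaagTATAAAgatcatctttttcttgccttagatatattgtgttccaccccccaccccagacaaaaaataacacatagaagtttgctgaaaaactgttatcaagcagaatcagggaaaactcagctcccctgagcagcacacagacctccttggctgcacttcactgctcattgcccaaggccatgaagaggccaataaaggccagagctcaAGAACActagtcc
AGAACA was found once before Defb30, with its first base 84 bases before the start, and at 2 places before Defb23, 232 and 13 bases before it. TATAAA stood 28 bases before the start of Lcn5, and TATA letters were also found 222 bases before Defb30 and 221 bases before Defb23. Among all 32851 windows of this length, 16.1% held AGAACA and 12.4% held TATAAA on either strand. These are matches of letters and not shown to be bound.

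Of the UMIs that placed the members on the list, 64.6% came from Lcn5 and 27.9% from Defb30, pooled over all members and libraries. The levels that follow were used by the rule and are a description. Lcn5 stood at 8222, 17626 and 22035 CPM in the members, at 472, 924 and 709 CPM in the Cst12/Lcn8 type and at 968, 1284 and 1530.0 CPM in the Lypd8/Defb18 type. Defb30 stood at 4342, 7115 and 9551 CPM in the members and at 419, 560.0 and 522 CPM and 336, 514 and 577 CPM in the other types. Members lay above both other types in all 3 libraries for each gene of the list. Ntsr2 had 397, 894 and 1030.0 CPM, Spag11a 316, 758 and 731 CPM and Rnase13 385, 532 and 525 CPM in the members. In the members of at least 1%, Lcn5 reached 14902, 22555 and 24579 CPM and Rnase13 633, 669 and 580.1 CPM. Since the limit of 1% is a floor on the same genes in each library, nothing about age is read from these values. All 5 genes of the list had a UMI in 130, 511 and 560 members, and in 58.3, 64 and 72.1% of the members of at least 1%. The cells were chosen by the summed share of these genes and no background was counted, so finding them together is no result.

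Detection in single cells had to be read against cells that should lack the genes. Lcn5 had a UMI in 99.5, 100 and 100% of members but also in 95, 97 and 97% of the cells with C1qa and C1qc, whose median depth was 5777, 6154 and 6951 UMIs. With each cell thinned to 1000 UMIs, which left out 5, 8 and 0 members, the shares were 90.2, 98.8 and 99.5% and 55.7, 69.2 and 64.9%. Rnase13 had a UMI in 37.9, 40.0 and 42.1% of thinned members of at least 1%, in 10.6, 13.2 and 17.3% of the other members and in 4.99, 13 and 8.89% of thinned cells with C1qa and C1qc. Ntsr2 gave 43.2, 58.9 and 58%, 11.8, 18.6 and 17.3% and 6.45, 14.2 and 17% in the same order. Both genes are among those that split the members at 1%, so the order of these sets is no finding. Of the cells with C1qa and C1qc, 18, 30 and 22 were members. Doublets were not called.

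Beyond the rule, 199 of 7874 genes with at least 30 UMIs in the members of each library were at least 2-fold above the higher of the other types in all 3 libraries (CPM + 1), and 64 were at least 4-fold above. The cells were divided by correlated genes, so these ratios are no test. The 12 with the largest lowest ratio were AY761185, Gm16411, Defb23, Gm34701, BC048679, Wfdc13, Rnase9, Defb39, Mbnl3, Epp13, Gpr82 and Gm6040, the last of which RefSeq also lists as a beta-defensin. Rnase9, a ribonuclease A relative made in the epididymis, had 3425, 7621 and 11175 CPM in the members, 167, 317 and 307 CPM in the Cst12/Lcn8 type and 215, 343 and 467 CPM in the Lypd8/Defb18 type, so the members were 15.8 to 23.9 times the higher of the 2. Defb23, a beta-defensin, had 803, 1102 and 1622 CPM in the members and at most 69.4 CPM in the others. Defb39 had 2027, 2866 and 3419.8 CPM in the members and was 15.1 to 21.9 times as high as in the higher other type. Wfdc13, of the family of whey acidic protease inhibitors, had 293, 451 and 579 CPM and a ratio of 16.1 to 24.3. Epp13, named epididymal protein 13, had 2840.2, 4320.3 and 5214 CPM and a ratio of 13.3 to 22. AY761185 had 646, 1807 and 2384 CPM and the largest lowest ratio of all genes, 24.7 to 26. The defensin genes AY761185 and Gm6040 lie near each other on chromosome 8 (chr8:20943694-20944748 and chr8:20901960-20922098), in a region of related genes, and Gm16411 is annotated as a pseudogene, so reads could have been divided among copies.

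2 of the 12 were regulators or receptors. Mbnl3, an RNA-binding protein of the muscleblind family, had 175, 288 and 286 CPM in the members and 8.39 to 17 CPM in the others. Gpr82, an orphan G protein-coupled receptor, was low, at 36.4, 47 and 86.6 CPM, and 1.42 to 3.9 CPM in the others. In the members of at least 1% all 12 were higher still, as in Rnase9 with 6639, 9924 and 12495 CPM and Mbnl3 with 342, 371 and 318 CPM.

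**Figure D2:**
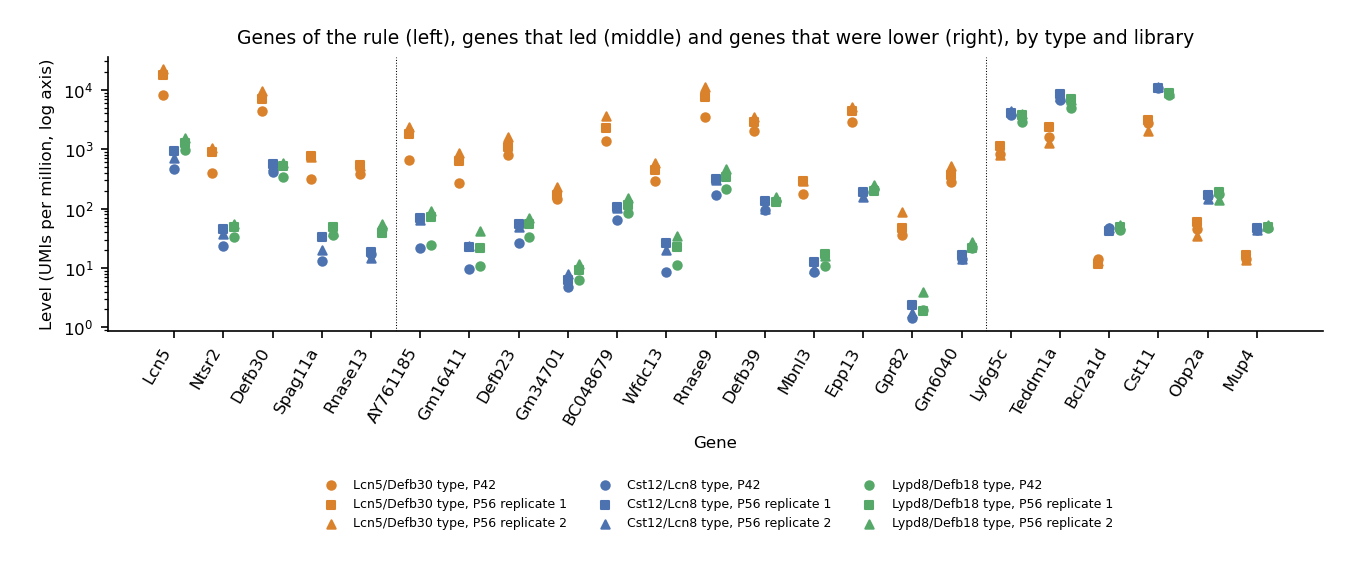
Levels (CPM, log axis) of the 5 genes of the rule, the 12 other genes that led and the 6 that were lower are plotted for the 3 types, with 1 point per library. For the rule and leading genes every point of the Lcn5/Defb30 type lies above all points of the other types, and for the 6 lower genes it lies below them.

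By gene family, 14 of 24 beta-defensin genes with enough UMIs outside the rule were at least 2-fold above both other types in each library, against 199 of 7874 genes in all. They were Defb9, Defb10, Defb11, Defb12, Defb13, Defb15, Defb21, Defb23, Defb28, Defb29, Defb37, Defb39, Defb40 and Defb44-ps. Defb15 reached 1562, 3052 and 2343 CPM and Defb12 1278, 1970.4 and 2035 CPM in the members, against at most 616 and 392 CPM in the others. Defb20, Defb25 and Defb41 were at least 2-fold below the lower of the others, as were 52 of 7154 genes in all. Defb20 had 7782, 12063 and 7106 CPM in the members and at least 18397 CPM elsewhere. Defensin genes stood in each list of the rule (Defb48, Defb30 and Defb18 among them). A division of defensins between the types was therefore partly built in and is no finding.

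Of 24 serpins and other protease inhibitors, 10 led: Serpina1f, Serpina16, Spink2, Spink8, Spink11, Spint4, Spint5, Wfdc8, Wfdc9 and Wfdc13. Wfdc6a was at least 2-fold below both other types, with 11.2, 12.1 and 8.85 CPM in the members. Spink8, a Kazal-type inhibitor, had 9125, 13735 and 18101 CPM in the members, 1180.0, 1286 and 1185 CPM in the Cst12/Lcn8 type and 3172, 2599 and 2780.5 CPM in the Lypd8/Defb18 type. Spink11, of the same kind, had 4386, 8969 and 12419 CPM and at most 1200.3 CPM elsewhere. Spint4, a Kunitz-type inhibitor, had 647, 906 and 1940.1 CPM and at most 139 CPM elsewhere. Single genes led in other families. Bsph1, a protein that binds sperm, had 201, 358 and 313 CPM, Gpx3, a secreted glutathione peroxidase, 426, 353 and 545 CPM, and Pax2, a transcription factor of the urogenital tract, 26.8, 17.7 and 30.4 CPM. Clu, the chaperone clusterin, had 7662, 9183 and 8753 CPM in the members, 824, 611 and 378 CPM in the Cst12/Lcn8 type and 3773, 2710.0 and 2495 CPM in the Lypd8/Defb18 type.

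Emcn, an endothelial gene, was also at least 2-fold above the others (45.3, 8.69 and 16.8 CPM), and the sum of 7 endothelial markers was higher too (186, 52 and 81.9 CPM in the members, 62.7, 13.2 and 23.4 CPM in the Cst12/Lcn8 type and 86.8, 21.4 and 33.2 CPM in the Lypd8/Defb18 type). Other lists were of retinoid handling, steroid signalling, tight junctions, the initial segment's ERK pathway, ion and water transport and the secretory pathway. They held 8, 9, 13, 12, 11 and 31 genes with at least 30 UMIs in the members of each library, in that order. In none of them did a gene lead at least 2-fold, where 199 of 7874 genes in all did. With lists this short, the lack of a leading gene is no result about a list.

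Fewer genes were low in the members. Of 7154 genes with at least 30 UMIs in both other types of each library, 52 were at least 2-fold below the lower of them in all 3 libraries, and the 6 with the largest ratio were Ly6g5c, Teddm1a, Bcl2a1d, Cst11, Obp2a and Mup4. Cst11, a cystatin of the caput, had 2778, 3046 and 2054 CPM in the members, 10557, 10791 and 11065 CPM in the Cst12/Lcn8 type and 8206, 8714 and 8809.5 CPM in the Lypd8/Defb18 type. Teddm1a, which encodes a membrane protein of the epididymis, had 1631, 2324 and 1294 CPM in the members and at least 5031 CPM elsewhere. Ly6g5c, of the Ly6 surface proteins, had 822, 1131 and 803 CPM and at least 2885 CPM elsewhere. The members of at least 1% were lower again, with 1459, 2032 and 1551 CPM for Cst11. Obp2a and Mup4, both lipocalins that carry odorants, and Bcl2a1d, of the Bcl2 family, lay 2.78 to 4.02, 2.77 to 3.05 and 2.96 to 3.44 times below the lower other type. 3 listed lipocalins, Lcn2, Lcn6 and Lcn10, were also at least 2-fold below, as in Lcn2 with 3444, 3504 and 2510.4 CPM in the members and at least 7039 CPM in the others. Ptgds, of the same list, was above both other types in each library, though by under 2-fold at P42, with 1087, 1520.3 and 1583 CPM in the members, 176, 185 and 142 CPM in the Cst12/Lcn8 type and 745, 733 and 678 CPM in the Lypd8/Defb18 type. Cldn10, a claudin of tight junctions, had 95.2, 92.8 and 75.5 CPM against at least 202 CPM.

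The members were not uniform. Across the members of at least 1% in each library (206, 739 and 748 cells), Rnase13 and Defb23 ran against each other, with Spearman's rho of -0.48, -0.34 and -0.42. Both had a UMI in 122 of 206, 404 of 739 and 461 of 748 cells, close to the 126, 414 and 475 cells that the product of the shares with each gene gives. As counted, Defb23 also had a UMI in 30.2, 42 and 38.8% of the cells with C1qa and C1qc, and Rnase13 in 22.3, 32.5 and 29.1%. A UMI of both therefore does not show that a cell made both. Cells of 1 library share their mice, their chip and their free RNA, and shares of a fixed total are not independent, so these values are a description. Genes that went with Defb23 were BC048679 (rho 0.74, 0.79 and 0.82), AY761185 (0.66, 0.65 and 0.61), Wfdc13 (0.55, 0.61 and 0.65), Gpr82 (0.55, 0.53 and 0.61), Spag11a (0.52, 0.56 and 0.49), Gm6040 (0.52, 0.49 and 0.52) and Defb30 (0.47, 0.50 and 0.46). Crisp1, a secreted protein that binds maturing sperm, also went with Defb23 (0.64, 0.57 and 0.62). Genes that went with Rnase13 were Clu (0.63, 0.60 and 0.57), Mbnl3 (0.38, 0.34 and 0.44) and Ntsr2 (0.33, 0.30 and 0.43). Gpx5, a glutathione peroxidase secreted by the caput, fell as Defb23 rose, with rho of -0.74, -0.72 and -0.77. Lcn5 was in between, at 0.11, 0.26 and 0.22 with Defb23 and 0.24, 0.30 and 0.34 with Rnase13, and it went most closely with Rnase9 (0.66, 0.79 and 0.82). The sign was the same in all 3 libraries for each of these values.

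**Figure D3:**
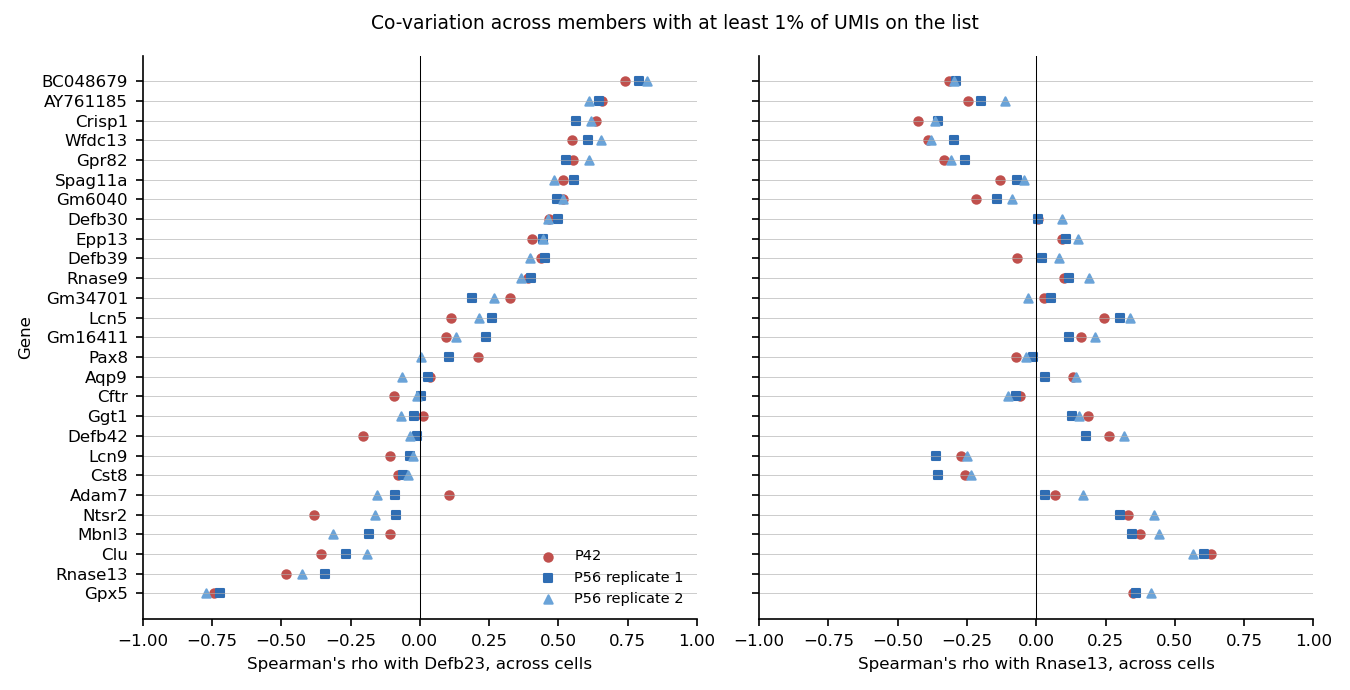
Spearman's rho across the members of at least 1% (206, 739 and 748 cells) is plotted for each gene of the rule, each leading gene and principal cell markers against Defb23 (left) and Rnase13 (right), with 1 point per library. Genes from BC048679 to Gm16411 are positive with Defb23 in every library, and Gpx5 and Rnase13 are at the negative end.

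The libraries of the corpus and cauda, which the rule did not use, were set against those of the caput, which hold the cells that it ranked. Sums over all kept cells were compared by edgeR's quasi-likelihood test, blocked by pool, and a gene was called where its p, adjusted by Benjamini and Hochberg's procedure, was under 0.05 and its log2 difference at least 1. Of the 17 genes (5 of the rule and 12 that led), 3 were called higher in the caput than in the corpus, where 7.7% of 18586 tested genes were, and 6 were called lower, where 8.69% of genes were. Against the cauda, 13 of 17 were called higher in the caput and 4 lower, where 11.8% and 8.76% of genes were. The 17 genes were picked from caput cells, and had to have UMIs there, which favours a higher call in the caput against either segment. The higher calls are therefore no support for a difference, and the levels behind them are given as a description, without a p.

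The 3 genes that stood higher in the caput than in the corpus were Rnase13, Ntsr2 and Mbnl3. Rnase13 had 90.1, 142 and 136 CPM in the caput, 8.7, 17.1 and 1.39 CPM in the corpus and 0.364, 0.251 and 0.171 CPM in the cauda, and the groups did not overlap (log2 difference of 3.99 ± 0.62 (SE) against the corpus). Ntsr2 had 99.9, 239 and 261 CPM, 19.5, 60.7 and 2.94 CPM and 0.779, 0.586 and 0.318 CPM in the same order (log2 difference of 3.20 ± 0.82 (SE)). Mbnl3 had 40.2, 76.3 and 72.2 CPM, 14.1, 19.4 and 8.36 CPM and 2.49, 4.5 and 5.46 CPM (log2 difference of 1.96 ± 0.33 (SE)). Each of these 3 was highest in the caput of its own pool.

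Transcripts of Lcn5, Defb30 and Spag11a, also genes of the rule and given without a p, were found in the corpus too. Lcn5 had 2049, 4837 and 5548 CPM in the caput, 977, 2214 and 457 CPM in the corpus and 8.62, 4.47 and 5.01 CPM in the cauda. Defb30 had 1066, 2012 and 2449 CPM, 797, 1265 and 309 CPM and 7.38, 4.27 and 4.65 CPM in the same order. For both, the caput and corpus libraries overlapped, and the cauda lay below them. Spag11a had 73.3, 203 and 185 CPM in the caput and 138, 279 and 63.3 CPM in the corpus. The corpus of P56 replicate 2 was the lowest of the 3 corpus libraries in all 5 genes of the rule.

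The 6 genes called higher in the corpus than in the caput were Defb23, Wfdc13, Gpr82, Gm16411, Gm34701 and Defb39. Of the genes that went with Defb23 across cells, Spag11a, Gm6040, Defb30, BC048679 and AY761185 were not called, and Gm16411 was called with a rho of 0.09, 0.24 and 0.13. Defb23 had 159, 302 and 430.4 CPM in the caput, 1368, 2255 and 1181 CPM in the corpus and 3.84, 7.23 and 1.61 CPM in the cauda (log2 difference of -2.58 ± 0.47 (SE), adjusted p = 0.00986 for the caput less the corpus). Wfdc13 had 53.2, 132 and 174 CPM in the caput and 4270.1, 6892 and 5289 CPM in the corpus (log2 difference of -5.85 ± 0.44 (SE), adjusted p = 3.40e-04), the largest difference of the 17. Gpr82 had 7.42, 12.7 and 24.1 CPM and 232, 408 and 386 CPM (log2 difference of -4.84 ± 0.30 (SE), adjusted p = 1.96e-04). BC048679 had 316, 616 and 888 CPM and 2303, 4174 and 3285 CPM, which did not pass the test (log2 difference of -2.61 ± 0.82 (SE), adjusted p = 0.0632), and neither did AY761185 (log2 difference of -1.43 ± 0.54 (SE), adjusted p = 0.107). BC048679 was called with DESeq2 (-2.55), with no filter (-2.58) and without the P42 pool (-2.44), and AY761185 with DESeq2 (-1.38). Gm6040 was called with DESeq2 (-1.04) and with no filter (-1.07). Gm16411, Gm34701, Gpr82 and Wfdc13 were also higher in the cauda than in the caput, as in Gm34701 with 32.3, 44.7 and 57.9 CPM in the caput and 199, 549 and 656 CPM in the cauda (log2 difference of -3.57 ± 0.38 (SE), adjusted p = 0.00121). The 6 genes that were low in the members had been chosen for high levels in the other caput types, which largely fixed their higher calls in the caput against both segments. Cst11, for instance, had 5601, 7254 and 6275 CPM in the caput and 14.4, 9.54 and 2.71 CPM in the corpus. Without the pool as a block, the calls of Ntsr2, Gm16411 and Defb39 against the corpus were lost. The counts of 3046 calls against the corpus and 3814 against the cauda changed with the pools in the fit. Without P56 replicate 1, 500 of 18964 genes were called against the corpus and 651 against the cauda. Without P56 replicate 2 there were 908 and 1266 calls, and without the P42 pool 4961 and 5837. Each of these fits also had fewer libraries. Without P56 replicate 1, 8 calls against the corpus were lost: Rnase13, Ntsr2, Mbnl3, Defb23, Gm16411, Gm34701, Defb39 and Bcl2a1d, the first 4 with log2 differences of 4.69, 4.22, 2.01 and -2.39. Without P56 replicate 2, 4 were lost: Ntsr2 (2.13), Gm34701, Defb39 and Bcl2a1d. Against the cauda 7 calls were lost without either replicate, those of AY761185, Gm16411, Wfdc13, Defb39, Gm6040 and Bcl2a1d in both cases, with Spag11a without replicate 1 and BC048679 without replicate 2. These losses kept their direction.

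**Figure D4:**
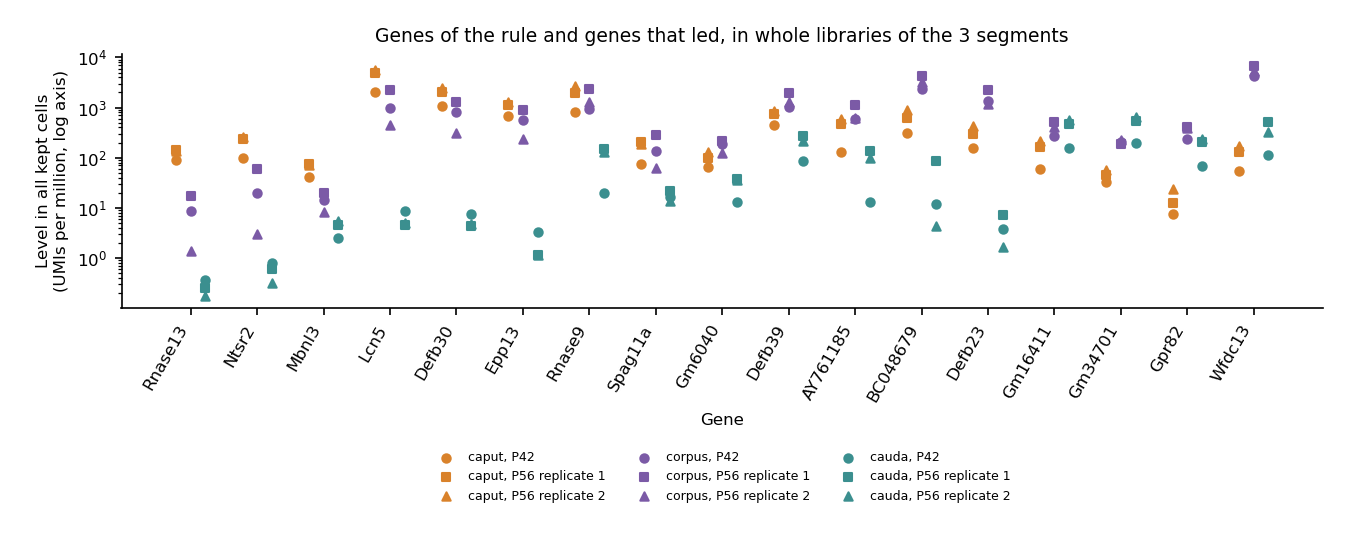
Levels in all kept cells (CPM, log axis) of the 5 genes of the rule and the 12 that led are plotted for caput, corpus and cauda, with 1 point per library. Rnase13, Ntsr2 and Mbnl3 on the left are highest in the caput, and Defb23, Gpr82 and Wfdc13 towards the right are higher in the corpus.

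The comparison of P56 with P42 asks how these cells changed between the ages. Counts were summed over the members of each library, giving 1 sum at P42 and 2 at P56, and the quasi-likelihood test of edgeR was applied with the same limits. The P42 sum is assumed to vary like the P56 sums, and p-values measure the spread between 2 pools. Of 13600 genes (without the genes of the rule and the gate), 289 or 2.12% were called higher at P56 and 424 or 3.12% lower. Scaling by total UMIs in place of TMM factors lowered the median of all genes by 0.34 on the log2 scale, to -0.34, and gave 94 higher and 787 lower calls, so that 10.7% of calls were higher in place of 40.5%. DESeq2 called 112 higher and 98 lower. Single levels in this comparison are CPM scaled by TMM factors, and sums of markers are unscaled CPM.

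Markers of several other cell types moved with age among the members, and their part in the age differences was not tested. Other lists had fewer calls. Of the tested markers, 0 of 5 of clear and narrow cells, 0 of 7 of macrophages and monocytes and 1 of 6 of basal cells (lower) were called. The myoid list gave 2 of 6 lower, and the list of T and halo cells 1 of 4 higher. The clear and narrow sum was 1181, 947 and 1253 CPM and the myoid sum 842, 857 and 583 CPM. The fibroblast sum was 1776, 336 and 330.3 CPM and 4 of 6 tested markers were called lower, as in Col1a1 (222, 22.4 and 13.4 CPM, log2 difference of -3.61 ± 0.23 (SE), adjusted p = 3.21e-05). The erythrocyte sum was 23623, 3681 and 5398 CPM with 4 of 5 markers lower, the endothelial sum 186, 52 and 81.9 CPM with 4 of 5 lower, and the ciliated sum 116, 19.4 and 35.2 CPM with 4 of 5 lower. No marker of these 4 lists was called higher, and DESeq2 called 4 fibroblast, 4 erythrocyte, 0 endothelial and 2 ciliated markers. The sperm sum was 47.6, 184 and 677 CPM with 5 of 7 markers higher, as in Prm2, a protamine (4.91, 63.2 and 249 CPM, log2 difference of 4.99 ± 0.80 (SE), adjusted p = 0.00381). DESeq2 called 1 sperm marker. With 1 fit over the 3 types Prm2 was not called (4.98). The sperm genes were higher in P56 replicate 2. As plain log2 differences with no fit, Prm2, Tnp1 and Tnp2 gave 3.59, 2.18 and 2.67 without P56 replicate 2. Without P56 replicate 1 they gave 5.56, 4.51 and 5.25. The fitted values over both, on another scale, were 4.99, 4.22 and 5.73. In the members of at least 1%, the fibroblast sum was 557, 232 and 304 CPM, the erythrocyte sum 5638, 2137 and 4373 CPM and the sperm sum 31.8, 170.2 and 493 CPM. Of the genes called in all members, 180 of 289 were also at least 2-fold higher in the members of at least 1%, and 183 of 424 at least 2-fold lower. In these cells 31 of the 424 were above their P42 value, and 0 of the 289 below it. The members of at least 1% are a part of all members. They held 1761414 of 3845125, 4735290 of 6446525 and 4843953 of 5534224 UMIs. Agreement between the 2 sets was therefore largely fixed in advance, and these counts are no support for the calls.

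Among the secreted products of principal cells, Gpx5 rose from 23106 CPM at P42 to 63910.2 and 43516 CPM at P56 (log2 difference of 1.23 ± 0.33 (SE), adjusted p = 0.0444). In the members of at least 1% it had 20872, 61717 and 41304 CPM, so the size of the difference was kept. The call was lost without TMM factors (0.874) and at the 85th percentile (0.939). Spink2, a Kazal-type inhibitor, had 785, 2540.1 and 2584 CPM (log2 difference of 1.72 ± 0.22 (SE)) and 1135, 3175 and 2806 CPM in the members of at least 1%. Both P56 libraries lay above P42 in each case. Rnase9 had 2939, 8600.1 and 11541 CPM (log2 difference of 1.79 ± 0.28 (SE)), and 5853, 11140.2 and 12625 CPM in the members of at least 1%. Across cells Rnase9 went with Lcn5, a gene of the rule. The median share on the list was 0.403, 2.07 and 3.44% in all members and 2.33, 3.41 and 3.78% in those of at least 1%. The levels of Rnase9 and of other genes that led in the members, such as Spink2, can follow that choice of cells. No p is therefore read for them in this comparison of ages. Rnase12, of the same family as Rnase9, had 641, 1335 and 1555 CPM (log2 difference of 1.19 ± 0.22 (SE), adjusted p = 0.00746), which shrank to a log2 difference of 0.65 in the members of at least 1%. It was not called without TMM factors (0.847) or with at most 1 gate gene (0.999).

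Of 27 beta-defensin genes tested, 7 were called higher (Defb13, Defb15, Defb19, Defb21, Defb23, Defb29 and Defb44-ps) and 0 lower, with a median log2 difference of 0.80 against 0.00349 over all genes. All of these 7 but Defb19 led in the members. Their levels can follow the choice of cells, so their calls are no result about age. As a plain difference of mean log2 CPM, with no fit, the median was 0.58 in all members and 0.24 in those of at least 1%, and 1 of the 7, Defb19, was still at least 2-fold higher. Defb19 had 13.2, 42.9 and 41.2 CPM in all members (log2 difference of 1.69 ± 0.22 (SE), adjusted p = 0.00114) and 23, 55.7 and 44.6 CPM in those of at least 1%. Defb23 had 689, 1243 and 1675 CPM in all members (log2 difference of 1.09 ± 0.24 (SE)) and 1425, 1559 and 1783 CPM in those of at least 1%, where P42 and P56 were close. The calls of Defb13, Defb15, Defb21, Defb23, Defb29 and Defb44-ps were lost without TMM factors and also with at most 1 gate gene. For Defb23 the values there were 0.761 and 0.56, and its call was also lost at the 85th percentile (0.923). Of 26 protease inhibitors, 6 were called higher (Spink2, Spink8, Spink11, Spint4, Spint5 and Wfdc13) and 2 lower (Serpine2 and Serping1), where 2.12% and 3.12% of all genes were. All 6 led in the members, so their higher calls are no result about age either. DESeq2 called 5 of the 26, and 1 of the 6, Spink2, kept a 2-fold difference in the members of at least 1%. Spint4 had 555, 1022 and 2004 CPM in all members (log2 difference of 1.46 ± 0.34 (SE)), but 1189.8, 1062 and 1914 CPM in those of at least 1%, where P56 replicate 1 was below P42. The call of Spint4 was lost with DESeq2 (1.46), 1 fit over the 3 types (1.45), no TMM factors (1.14) and at most 1 gate gene (0.579), and its sign turned at the 85th percentile (-0.306). Spint5 lost its call under the same settings and turned likewise (-0.386). Spink8 (0.802 and 0.816) and Wfdc13 (0.814 and 0.521) lost theirs without TMM factors and with at most 1 gate gene. Wfdc13 also lost it at the 85th percentile (0.77). Crisp1, Crisp4 and Bsph1, the last of which also led in the members, were called higher among 9 genes of the ADAM and CRISP list. Their log2 differences in the members of at least 1% were 0.23, 0.76 and 0.67. Of 12 markers of principal cells, Gpx5 and Crisp1 were called. Crisp1 lost its call with 1 fit over the 3 types (1.1), no TMM factors (0.787), at most 1 gate gene (0.557) and the 85th percentile (0.695). Crisp4 (0.705) and Bsph1 (0.742) lost theirs without TMM factors, and Bsph1 also at the 85th percentile (0.996).

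Genes of cell division were lower at P56 in both sets of cells. All 5 of 5 tested cell cycle genes were called lower by edgeR, where 3.12% of all genes were, and 1 by DESeq2. With at most 1 gate gene, Ccnb1 (-1.27), Cdk1 (-1.61) and Birc5 (-1.56) lost their calls. Ccnb1 also lost it with 1 fit over the 3 types (-1.89). The summed level of 6 cell cycle genes was 184, 32.6 and 43.9 CPM in all members and 237, 31.5 and 38.2 CPM in those of at least 1%. Cenpf, a protein of the kinetochore, had 44.9, 13.5 and 12.9 CPM in all members (log2 difference of -1.75 ± 0.20 (SE), adjusted p = 5.74e-04) and 55.1, 10.2 and 9.8 CPM in those of at least 1%. Top2a, the topoisomerase of dividing cells, had 26.6, 5.78 and 8.02 CPM (log2 difference of -1.93 ± 0.27 (SE), adjusted p = 0.00177), a call that DESeq2 did not give (-1.93). P42 was above both P56 libraries in each.

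Of 18 genes of the early response that tissue dissociation is known to induce, 13 were called lower at P56 and 0 higher, with a median plain log2 difference of -1.72 in all members and -1.40 in those of at least 1%, where 11 of the 13 were still at least 2-fold lower. Fos, an immediate-early transcription factor, had 1805, 447 and 357 CPM (log2 difference of -2.15 ± 0.20 (SE), adjusted p = 1.63e-04) and 1259, 363 and 336 CPM in those of at least 1%. Egr1, of the same kind, had 492, 124 and 95 CPM (log2 difference of -2.16 ± 0.19 (SE), adjusted p = 1.28e-04). Hspa1b, a heat shock protein, had 43.3, 21.2 and 13.6 CPM (log2 difference of -1.30 ± 0.24 (SE), adjusted p = 0.00839), and lost its call with DESeq2 (-1.3) and with at most 1 gate gene (-0.932). Age and the handling of a single P42 pool cannot be told apart. Of 24 epithelial transcription factors, 6 were called lower (Lhx1, Gata2, Klf4, Klf5, Cebpd and Sox17), where 3.12% of all genes were, and 0 higher. DESeq2 called 2 of the 24. Klf4, which is itself an early response gene in many cells, kept a 2-fold difference in the members of at least 1% (75.6, 21.3 and 20.4 CPM), as did Lhx1, whereas Cebpd had 143, 55.8 and 57.9 CPM in all members and 77.6, 47.2 and 52.4 CPM in those of at least 1%.

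In several lists at most 1 gene was called lower, where 3.12% of all genes were. With lists this short, 1 call or none is no result about the list. In the retinoid list 1 of 20 genes was called lower (Crabp1), in ion and water transport 1 of 15 (Aqp1), in tight junctions 1 of 17 (Cldn4), in the ERK list 1 of 17 (Spry1), in the secretory pathway 1 of 32 (Creb3l1), and in steroid signalling 0 of 13 by edgeR, with 4 at an unadjusted p under 0.05 and 0 called by DESeq2. Aqp1, a water channel, had 26.8, 5.78 and 6.9 CPM (log2 difference of -2.06 ± 0.26 (SE), adjusted p = 9.20e-04) and 16.5, 1.9 and 5.84 CPM in the members of at least 1%. Of 8 lipocalins edgeR called 0, with 3 at an unadjusted p under 0.05 and 0 called by DESeq2, and of 7 cystatins 0, with 2 at an unadjusted p under 0.05 and 1 called by DESeq2. In the neurotensin system, Nts, the peptide that the Ntsr2 receptor binds, was called lower (11.6, 0.525 and 0.187 CPM, log2 difference of -4.91 ± 0.59 (SE), adjusted p = 7.13e-04), but had 0.501, 0.474 and 0 CPM in the members of at least 1% and 24.5, 0.584 and 1.45 CPM, unscaled, in the members under 1%. Ntsr1, a related receptor, was called higher from 0.669, 5.6 and 3.55 CPM (log2 difference of 2.75 ± 0.75 (SE), adjusted p = 0.0489). As plain log2 differences with no fit, Ntsr1 gave 1.90 without P56 replicate 1 and 2.5 without P56 replicate 2. It was not called with 1 fit over the 3 types (2.74), no TMM factors (2.4) or at most 1 gate gene (2.84). Of 10 mitochondrially encoded genes, mt-Nd1 and mt-Cytb were called higher, where 2.12% of all genes were. Both calls were lost without TMM factors (0.723 and 0.702), with at most 1 gate gene (0.935 and 0.871) and at the 85th percentile (0.995 and 0.956).

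The largest fitted age differences belonged to low genes. The 10 called genes that rose most were Akap4, 1700029H14Rik, Prm3, Txndc2, Gm43841, Gm42670, C630004M23Rik, Tnp2, 1700027A15Rik and Prm2, of which Akap4, Prm3, Txndc2, Tnp2 and Prm2 are known from sperm. 7 of them had no UMI in the P42 members. Against a floor of 3 UMIs in that sum, Akap4 was at least 9.23-fold higher and C630004M23Rik at least 3.16-fold higher at P56 over the mean of both replicates. P56 replicate 1 alone gave at least 3.18-fold for Akap4, and P56 replicate 2 alone at least 15.3-fold. With 1 fit over the 3 types, the calls of Akap4, 1700029H14Rik, Prm3, Txndc2, Gm42670, Tnp2, 1700027A15Rik and Prm2 were lost. C630004M23Rik lost its call without TMM factors. The 10 that fell most were Cytl1, Dkk2, Ecel1, Syt10, Tie1, Nts, Aldh1l1, Dtx3l, Fabp4 and Ect2, among which Tie1 and Fabp4 are found in blood vessels. Dkk2, Ecel1 and Syt10 lost their calls with 1 fit over the 3 types. Aldh1l1, a folate enzyme, had 16.3, 0.525 and 0.746 CPM in all members (log2 difference of -4.62 ± 0.45 (SE), adjusted p = 2.15e-04) and 14, 0.237 and 0.417 CPM in those of at least 1%.

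**Figure D5:**
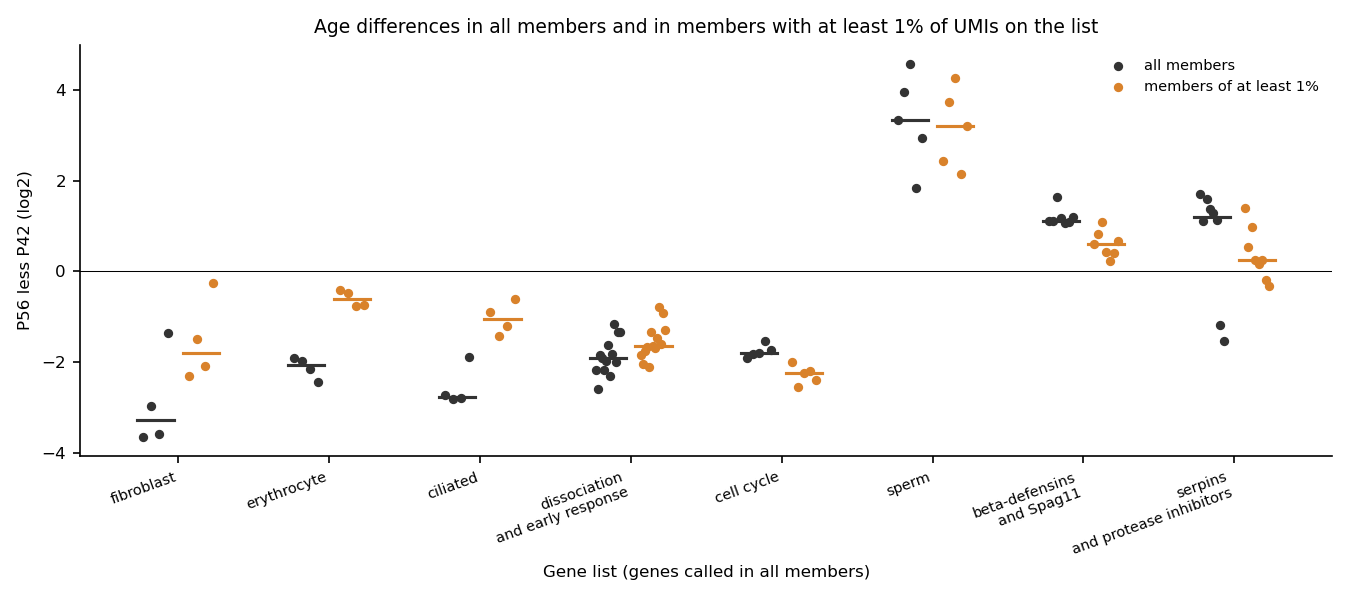
The log2 difference of P56 less P42 is plotted for the genes of 8 lists that were called in all members, in all members and in the members of at least 1%, with 1 point per gene and a bar at the median. Early response, cell cycle and sperm genes keep their differences, and those of erythrocyte genes, beta-defensins and protease inhibitors shrink.

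Whether the ages differed more in these cells than in the other 2 types was tested by the interaction of type and age, with the library as a block. Of 12872 genes 16 or 0.124% were called, 3 more positive and 13 more negative in the members, and 1192 genes had an unadjusted p under 0.05. Single levels here are CPM scaled by the TMM factors of this fit over the 3 types. For Gpx3 the age difference was more positive in the members than in the mean of the others by edgeR's quasi-likelihood test (log2 difference of 1.23 ± 0.12 (SE), adjusted p = 1.28e-04). It had 323, 353 and 498 CPM in the members, 68.8, 39.9 and 53.3 CPM in the Cst12/Lcn8 type and 146, 61.2 and 73.1 CPM in the Lypd8/Defb18 type, where both P56 libraries lay below P42. The members of at least 1% gave 0.89. Gpx3 also led in the members, so its level too can follow the choice of cells. With at most 1 gate gene the fitted difference was 0.458 and the call was lost. No gene was called more positive at that setting, where Iapp was not tested. Iapp, the amyloid peptide of islets, had 7.11, 6.04 and 22.6 CPM in the members and 24.5, 2.87 and 2.91 CPM in the Cst12/Lcn8 type (log2 difference of 2.87 ± 0.43 (SE), adjusted p = 0.00755), and its 2 P56 libraries lay on either side of P42 in the members. With the rule's limit at the 85th percentile the difference was -0.42. The uncharacterised gene 2900005J15Rik had 3.55, 13.2 and 19.5 CPM in the members (log2 difference of 1.93 ± 0.38 (SE), adjusted p = 0.0436), a call lost with at most 1 gate gene (1.1) and at the 85th percentile (1.99). Crisp1 was more negative in the members (log2 difference of -1.16 ± 0.17 (SE), adjusted p = 0.00755). It had 247, 402 and 661 CPM in the members and 86.1, 493 and 554 CPM in the Cst12/Lcn8 type, where the rise with age was larger.

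The other genes that were more negative in the members included Col1a1, Col1a2, Dcn, Sfrp1, Gas1, Chrdl1 and Hbb-bt, several of which are known from stroma, beside Ccl7, Arrb2, Eva1b, Cygb and Tob1. Without a fit, as plain differences of mean log2 CPM, Col1a1, Col1a2 and Dcn in the members of at least 1% gave 0.12, 0.43 and 0.08, in place of -1.23, -1.06 and -1.04 in all members. Of the 13 genes called more negative, 7 were positive there on this scale. Ccl7 had 12.6, 3.87 and 4.13 CPM in all members and turned on the same scale from -2.49 to 0.96. Crisp1 gave -1.97, Eva1b -1.13 and 2900005J15Rik 2.08, which were still beyond 1.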

How the data were processed

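Single-cell suspensions of caput, corpus and cauda were run on a microwell chip with UMIs. Per the labels and the study's methods, the authors trimmed reads with fastp, aligned them with STAR 2.7.3a to GRCm38.p6, assigned them to exons with featureCounts and deposited raw UMI counts of 32195 genes in 44869 barcodes, collapsed with UMI-tools. Counts can be divided or lost among near-identical genes, such as beta-defensins. Cells were filtered and chosen as the text states, and doublets were not called.

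Counts were summed over cells per library, since cells are not replicates. edgeR 4.0.16 (R 4.3.3) fitted quasi-likelihood models with TMM factors after filterByExpr, and p-values were adjusted by Benjamini and Hochberg's procedure over all genes tested. The limits for a call were 0.05 for the adjusted p and 1 for the log2 difference. Age in the members had 1 residual degree of freedom. The interaction of type and age had the library as a block, and the fit of segments was blocked by pool, because each pool gave its caput, corpus and cauda from the same animals. In 9 pairs of libraries of the same pool the deviations from the segment means correlated at 0.14 to 0.734, and in 18 other pairs at -0.663 to 0.527. Replicates are pools of mice. Type against type was the contrast of the rule and was not tested, and the 30 genes of the rule and the gate were not read in the tests of age. In simulated counts, genes were changed by a log2 difference of 2, above the limit for a call. The fits recovered 78.8% of the changed genes for age (13080 genes), 71.2% for the interaction (12530), 59.9% for the corpus (18080) and 53.3% for the cauda (18048). False calls numbered 9, 1, 3 and 5. All libraries were drawn with the fitted dispersion, so the assumption about P42 and differences in membership were not tried.

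Named genes were those of the rule, the 12 with the largest lowest ratio of CPM + 1 to the higher other type and the 6 in the opposite direction (at least 30 UMIs in each library), the 10 called age differences largest in each direction with P42 outside the P56 range, the 5 largest called interactions in each direction, and members of the gene lists. The remaining called interaction genes were named after their values were seen. The members and lists were chosen with earlier results of these data known. Alternatives were DESeq2 1.42.0, no TMM factors, no filter on low counts, other limits of the rule, a shared fit, mitochondrial and globin genes left out, and single libraries left out. After the shares were seen, members with a share of at least 1% were added, and these were compared by level only. Sequences came from RefSeq. The values of 1 listed gene are not reported here.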

Additional observations from a re-analysis of the deposited data

Results flagged for a closer look

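For 16 genes the age difference in the members differed from the mean of that in the other 2 types by the interaction test (edgeR's quasi-likelihood test, adjusted p under 0.05), and each value here is that difference on the log2 scale. It was more positive in the members for Iapp (2.87), 2900005J15Rik (1.93) and Gpx3 (1.23). It was more negative for Ccl7 (-2.75), Arrb2 (-1.29), Eva1b (-1.29), Cygb (-1.27), Gas1 (-1.25), Crisp1 (-1.16), Col1a1 (-1.21), Col1a2 (-1.05), Dcn (-1.04), Hbb-bt (-1.06), Chrdl1 (-1.25), Sfrp1 (-1.24) and Tob1 (-1.09). In the members with a share of at least 1%, as plain differences of mean log2 CPM with no fit and no test, the values were 2.87 for Iapp, 2.08 for 2900005J15Rik, 0.89 for Gpx3, 0.96 for Ccl7, -0.24 for Arrb2, -1.13 for Eva1b, -0.37 for Cygb, -0.14 for Gas1, -1.97 for Crisp1, 0.12 for Col1a1, 0.43 for Col1a2, 0.08 for Dcn, 0.67 for Hbb-bt, 0.03 for Chrdl1, 0.35 for Sfrp1 and -0.91 for Tob1. Fibroblast and erythrocyte transcripts were lower at P56 in the members, and their part in these values was not tested.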

How the results depend on the processing

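The single P42 pool, the mixed membership and the pools limit these results. Age calls in the members numbered 713. They were 472 with 1 fit over the 3 types, 210 with DESeq2, 344 with at most 1 gate gene and 1073 with no filter on low counts, and 881 without TMM factors, 579 at the 85th percentile and 709 without mitochondrial and globin genes. The higher calls were 40.5% of the total, but 53.3% with DESeq2, 52.6% with at most 1 gate gene and 10.7% without TMM factors. Interaction calls numbered 16, and 4 with DESeq2, 2 with at most 1 gate gene and 66 with no filter. Leaving out 1 of the P56 libraries left no residual degree of freedom for age, so only the values of named genes were computed.

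Calls against the corpus numbered 3046 and ran from 500 to 908 without 1 of the P56 pools, and 4961 without the P42 pool. Against the cauda they numbered 3814, ran from 651 to 1266 and were 5837. Without the replicate block, 2212 and 2935 genes were called, and of 23 named genes, 3 lost the call against the corpus and 7 against the cauda (AY761185, Gm16411, BC048679, Wfdc13, Defb39, Gm6040 and Bcl2a1d).

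Some values changed sign, and the cause was not tested. For age these were Spint4 (-0.306) and Spint5 (-0.386) at the 85th percentile and Cnn1 (0.515) with at most 1 gate gene. For the interaction they were Iapp (-0.424) at the 85th percentile and, in members of at least 1%, as plain differences with no fit, 7 of the 13 more negative calls: Ccl7 (0.962), Hbb-bt (0.667), Col1a2 (0.429), Sfrp1 (0.352), Col1a1 (0.124), Dcn (0.0757) and Chrdl1 (0.0277). Against the corpus they were Spag11a without 1 of the P56 pools (from -0.682 to 0.114) and without the P42 pool (0.274), and Rnase9 with DESeq2 (0.0514), no filter (0.0204), no replicate block (0.0678), without 1 of the P56 pools (from -0.217 to 0.118) and without the P42 pool (0.178), neither of which was called.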
